A study of Mus musculus with 24 samples.

Results

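The presynaptic release machinery was followed through 9 genes (Snap25, Stx1a, Vamp2, Syt1, Cplx1, Unc13a, Syp, Sv2a and Syn1), picked by gene symbol, in tumours of the mouse cortex. Of these 9 genes, 8 were read by a probe set that carries a single symbol, out of 17097 genes with such a probe set. Unc13a, which encodes the priming factor Munc13-1, had only a probe set that also carries Colgalt1, so no value is given for it. Total RNA of each of 24 tumours was measured on an Affymetrix array of its own, and each value is a log2 expression value, so a difference of 1 is a doubling. The cells that gave rise to a tumour expressed 1 of 3 class genes: RAB3A (6 tumours), BC74C (9) or ZNF668 (9). The tumours were also labelled ependymoma (11), HGG (4), TUMOR (5) or UNKNOWN (4), and their titles begin with elw (18) or mmr (6). Strain, age, sex, the vector and promoter that carried the class gene, and a normal cortex are not given in the sources used here. Nothing in the labels ties each tumour to a mouse of its own, so the p-values measure only the spread between these tumours.

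Neurons pass signals by fusing transmitter-filled vesicles with the membrane of the nerve ending. The SNARE proteins syntaxin-1 (Stx1a) and SNAP-25 (Snap25) on the cell membrane and synaptobrevin-2 (Vamp2) on the vesicle zip into a bundle that pulls the membranes together, Munc13-1 readies the vesicle, complexin (Cplx1) clamps and primes the bundle, and synaptotagmin-1 (Syt1) triggers fusion when calcium enters. Synaptophysin (Syp), SV2A (Sv2a) and synapsin-1 (Syn1) are proteins of the vesicle itself, synapsin tethering vesicles in reserve. In the cortex these genes are read mostly in mature neurons, and outside neurons the repressor REST, which binds a long DNA element called RE1, keeps many genes of this kind silent.

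Start-site windows of 3 measured members are shown because they span the range met below: Syn1 holds letters linked to REST and to CREB, Syp lies close to most other members across the tumours, and Stx1a is the member least like the rest. Each window runs from 250 bases before to 50 bases after a RefSeq gene start on GRCm38.p6, 5′ to 3′ on the gene's strand. Capitals mark matches, on either strand, to the left arm of RE1 (TTCAGCACC), to the cAMP response element (CRE, TGACGTCA) or to the GC box (GGGCGG). Syn1 lies at chrX:20920869-20921168 on the minus strand, Syp at chrX:7638330-7638629 on the plus strand and Stx1a at chr5:135023232-135023531 on the plus strand.
Syn1: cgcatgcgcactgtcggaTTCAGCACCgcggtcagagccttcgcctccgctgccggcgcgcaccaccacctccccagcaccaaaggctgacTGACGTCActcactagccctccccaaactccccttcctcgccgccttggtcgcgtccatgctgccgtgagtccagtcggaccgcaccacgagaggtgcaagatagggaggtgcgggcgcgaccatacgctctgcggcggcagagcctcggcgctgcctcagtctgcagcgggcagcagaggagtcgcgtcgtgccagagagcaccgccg
Syp: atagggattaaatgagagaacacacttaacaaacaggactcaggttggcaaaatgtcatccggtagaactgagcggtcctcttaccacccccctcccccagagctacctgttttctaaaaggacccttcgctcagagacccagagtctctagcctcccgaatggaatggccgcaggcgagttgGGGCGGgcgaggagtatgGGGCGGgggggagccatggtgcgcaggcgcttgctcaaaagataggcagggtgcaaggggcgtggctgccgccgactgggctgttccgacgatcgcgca
Stx1a: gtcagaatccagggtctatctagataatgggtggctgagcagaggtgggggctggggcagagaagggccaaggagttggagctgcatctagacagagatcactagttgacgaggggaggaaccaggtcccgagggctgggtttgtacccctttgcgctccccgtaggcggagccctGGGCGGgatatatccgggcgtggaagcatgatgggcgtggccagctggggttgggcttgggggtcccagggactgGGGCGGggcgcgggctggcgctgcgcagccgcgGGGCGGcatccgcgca
The Syn1 window held the RE1 arm from base -232 to -224 before the start and the CRE from -159 to -152. The same RE1 letters occurred in 0.371% of 32851 windows of all genes, the CRE in 1.79% and the GC box in 35.7%. Syp held GC boxes at -67 to -62 and -49 to -44, and Stx1a at -74 to -69, at 1 to 6 and at 34 to 39. In all, 8 windows were at hand for 7 members. The RE1 arm was in 2 of them, the other being Unc13a, whose match lies on the opposite strand at bases 22 to 30. The CRE was in 1 window and the GC box in 6. Windows for Snap25 and Vamp2 were not used here. A match is a run of letters, not a binding site.

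The arrays were alike in scale, with medians between 4.98 and 5.20 and values between 2.40 and 13.85, and any 2 arrays correlated at r = 0.89 to 0.99. After probe sets of low mean were left out, 13218 genes were tested and all 8 measured members were among them. Markers checked the tissue. The mean of 21 neuron genes that are not presynaptic ran from 5.46 to 9.96 across the tumours, that of 27 genes of dividing cells from 4.87 to 9.28, and that of astrocyte genes from 7.40 to 10.78. The mean of 10 ependymal and cilia genes, 9 of them tested, was 5.28 ± 0.46 (SD, n = 11) in tumours labelled ependymoma. In those labelled HGG it was 5.30 ± 0.46 (SD, n = 4). The ependymoma label was thus not matched by a higher level of ependymal markers.

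The release genes were among the genes that varied most from tumour to tumour. The SD over the 24 tumours lay between 0.88 (Vamp2) and 1.52 (Sv2a), against a median of 0.44 over all genes tested. By that SD, Sv2a stood at the 98.1st percentile of genes tested, Syt1 at 97.9, Syp at 97.7, Cplx1 at 96.5, Snap25 at 96.2 and Syn1 at 95.3. The SNARE genes Stx1a, at the 85.7th percentile, and Vamp2, at 84.7, varied less. Sv2a spanned 5.92 log2 units from its lowest to its highest tumour and Stx1a 3.17, where the median gene spanned 1.76. In a piece of tissue, fewer neurons and less of each transcript per neuron cannot be told apart.

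The same tumours lay at the ends for nearly every member. RAB3A replicate 1, labelled UNKNOWN, held the highest value of 6 members, at 12.93 for Snap25, 12.77 for Syt1, 10.81 for Vamp2, 8.74 for Stx1a, 9.92 for Syp and 9.52 for Syn1. For Sv2a and Cplx1 the highest tumour was ZNF668 replicate 9, also labelled UNKNOWN, at 11.53 and 12.67. ZNF668 replicate 7, labelled TUMOR, held the lowest value of 6 members, at 7.50 for Snap25, 7.32 for Syt1, 7.10 for Cplx1, 5.61 for Sv2a, 5.16 for Syn1 and 4.65 for Syp. Stx1a was lowest in BC74C replicate 2 (5.57) and Vamp2 in ZNF668 replicate 8 (7.60). In the BC74C tumours Snap25 fell into separate bands: 5 tumours lay between 12.39 and 12.73 and the other 4 between 9.81 and 10.98. Syn1 placed the same 5 tumours between 8.03 and 8.76 and the same 4 between 5.83 and 6.24.

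**Figure D1:**
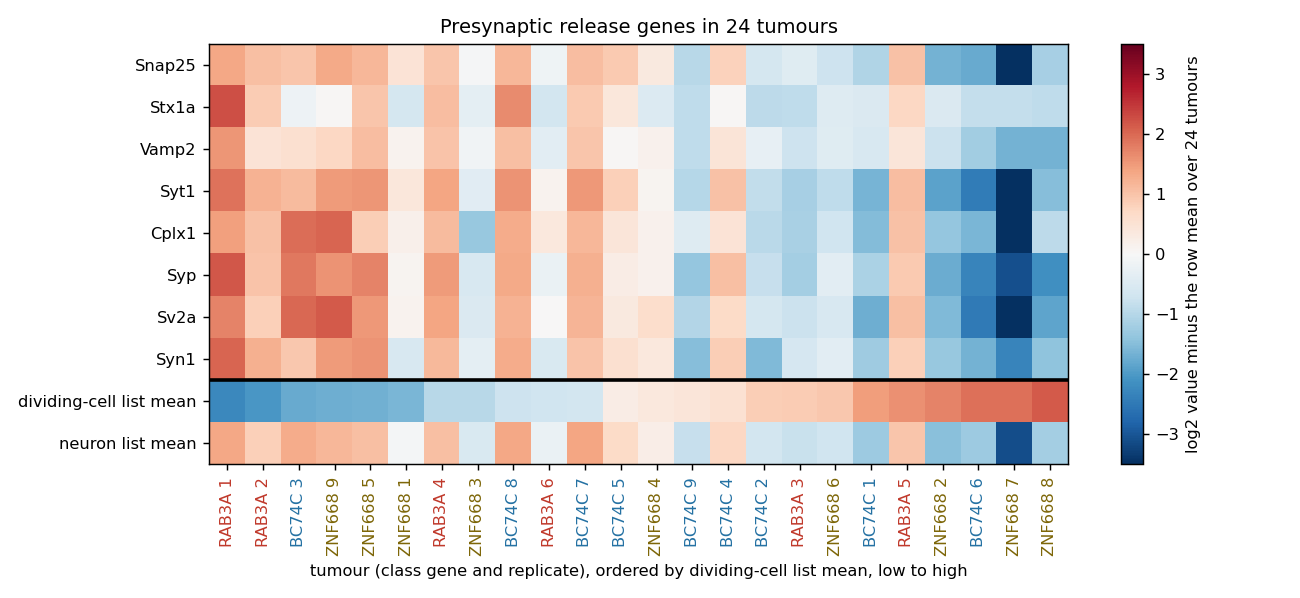
Each column is 1 of the 24 tumours, ordered from the lowest to the highest mean of the dividing-cell list, and each row a release gene or, under the line, a list mean; colour is the log2 value minus that row's mean over the 24 tumours. The release genes and the neuron list mean turn from red to blue together as the dividing-cell mean rises, with RAB3A replicate 5 high for all 8 genes at a dividing-cell mean of 8.74.

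The 8 genes rose and fell together across the tumours. Over 28 pairs of members, Pearson's r over 24 tumours ran from 0.68 to 0.98 with a median of 0.93. Stx1a stood a little apart: its 7 pairs gave r of 0.68 to 0.85, and the 21 pairs without it 0.86 to 0.98. Against the mean of the other 7 members, Stx1a reached r = 0.78 and each of the others 0.93 to 0.98. The shape of the spread also differed. In the 12 tumours where it was lowest, Snap25 spanned 4.42 log2 units and in the 12 where it was highest only 0.87, while Stx1a spanned 0.46 in its lower 12 and 2.59 in its upper 12. Without ZNF668 replicate 7 the other 11 of the lower tumours spanned 2.10 for Snap25. The values of Snap25 thus varied mainly at their low end and those of Stx1a mainly at their high end. Whether the range that each probe set can read shaped these ends was not tested. By Spearman's rho the 7 pairs with Stx1a gave 0.75 to 0.91 and the 21 pairs without it 0.87 to 0.98. These correlations are descriptions: all values of a tumour come from 1 array and 1 piece of tissue.

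Tested genes with names from clones, predictions or sequence records were passed over here. Of the others, those whose pattern was most like the mean of the standardised members were named by r over the 24 tumours. They were Prkar1b, a regulatory subunit of protein kinase A, at 0.99, and Dnm1, the dynamin that pinches off vesicles for recycling, at 0.99. Rims1, a scaffold of the release site, followed at 0.98, then Cep170b and the neuronal sodium channel Scn2a, both also at 0.98. The most opposite were Snrpf, a core protein of the spliceosome, at -0.94, Lin9, a subunit of the complex that switches on cell-cycle genes, at -0.93, Pnrc2 and the spindle protein Haus1, both at -0.92, and Gpn2 at -0.91.

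The release genes fell as genes of dividing cells rose. For each log2 unit by which the mean of the 27 dividing-cell genes was higher, Sv2a was lower by 0.84 log2 units, Syt1 and Syp by 0.83, Cplx1 by 0.70, Snap25 by 0.68, Syn1 by 0.65, Vamp2 by 0.48 and Stx1a by 0.37. All 8 slopes passed limma at an adjusted p under 0.05, where 18.7% of all genes tested had a negative slope that passed and 20.3% a positive one. Among the membrane-side SNARE genes, the slope of Snap25 was -0.68 ± 0.13 (SE, limma adjusted p = 0.000185) and that of Stx1a -0.37 ± 0.11 (limma adjusted p = 0.00709). For the vesicle SNARE gene Vamp2 it was -0.48 ± 0.08 (limma adjusted p = 4.23e-05). The calcium sensor gene Syt1 had -0.83 ± 0.13 (limma adjusted p = 3.79e-05) and Cplx1 -0.70 ± 0.13 (limma adjusted p = 0.000193). Of the vesicle protein genes, Syp had -0.83 ± 0.13 (limma adjusted p = 2.69e-05), Sv2a -0.84 ± 0.13 (limma adjusted p = 3.99e-05) and Syn1 -0.65 ± 0.12 (limma adjusted p = 0.000166).

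Single tumours show the size of this relation. At the lowest dividing-cell mean, 4.87 in RAB3A replicate 1, Syp read 9.92, and at the highest, 9.28 in ZNF668 replicate 8, it read 5.60. In the BC74C tumours of the upper Snap25 band the dividing-cell mean was 5.38 to 7.67, and in those of the lower band 7.58 to 9.06. RAB3A replicate 5 departed from the pattern: its dividing-cell mean of 8.74 was among the highest, yet Snap25 read 12.61, Syt1 11.95 and Syp 8.65, and its neuron list mean was 9.54. ZNF668 replicate 7 lay on the other side, with Snap25 at 7.50 and Cplx1 at 7.10 at a dividing-cell mean of 9.06.

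**Figure D2:**
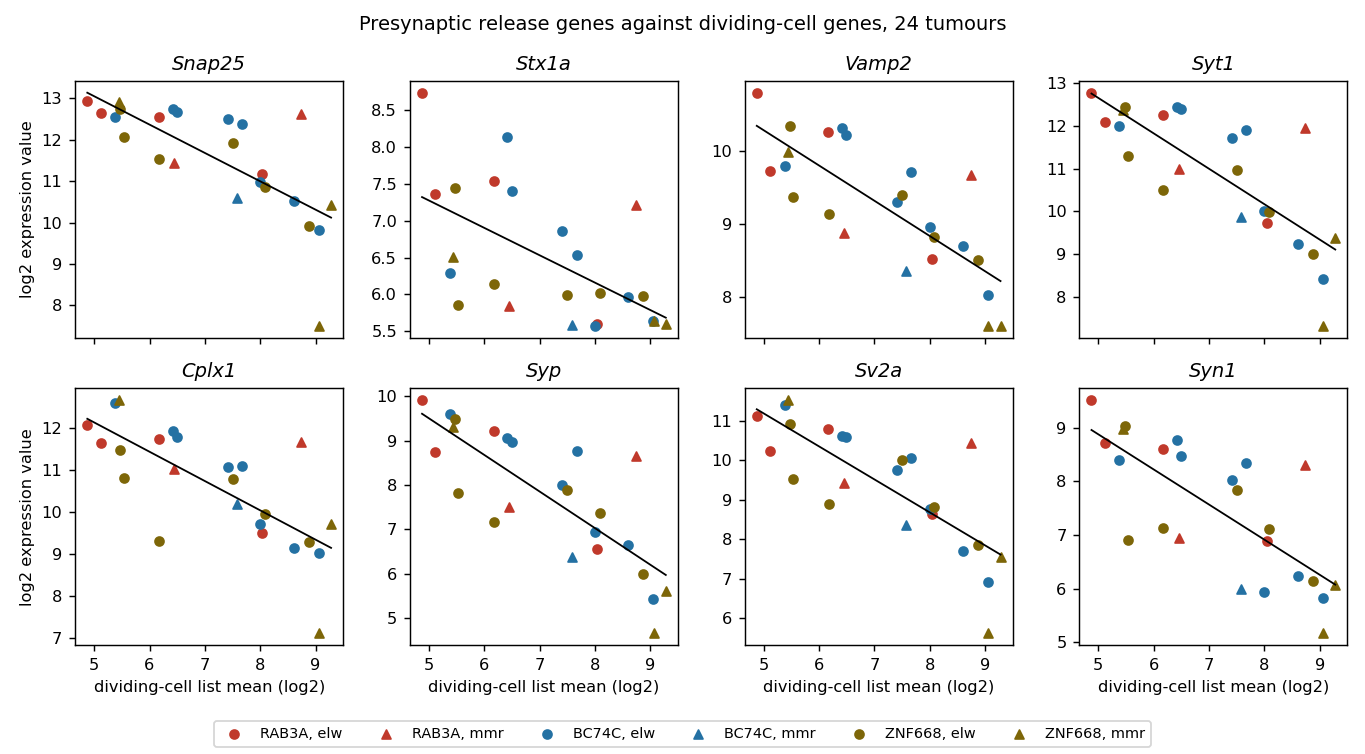
Each panel plots the log2 value of 1 release gene (vertical) against the mean log2 value of the dividing-cell list (horizontal); a point is a tumour, its colour the class gene, its shape the title prefix, and the line is the fitted slope. All 8 lines fall, and the red triangle at 8.74 on the horizontal axis, RAB3A replicate 5, lies above the line in every panel.

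Over the 24 tumours, Pearson's r between a member and the dividing-cell mean ran from -0.80 (Syp) to -0.59 (Stx1a) and Spearman's rho from -0.82 to -0.60. The permutation p-values ran from 2e-05 to 0.00262 for r and from 1e-05, the smallest that 100000 permutations can give, to 0.00229 for rho, among 16 relations computed. Without RAB3A replicates 1 and 2, the 2 tumours farthest from the median dividing-cell mean, r ran from -0.78 to -0.46, and 7 of the 8 slopes passed; that of Stx1a became -0.27 (limma adjusted p = 0.0673). In the 18 elw tumours r ran from -0.84 to -0.66 and all 8 slopes passed. In the 6 mmr tumours r ran from -0.70 to -0.15, the slopes from -0.95 to -0.07, and none passed limma (adjusted p 0.332 to 0.889). Within class genes r ran from -0.58 to -0.45 in RAB3A tumours, from -0.96 to -0.58 in BC74C tumours and from -0.90 to -0.67 in ZNF668 tumours. With the class gene in the model the 8 slopes ran from -0.82 to -0.34, and all 8 passed. With the mean of 3 Y-linked genes in the model they ran from -0.75 to -0.33, and all 8 passed. Over the 24 tumours 18.7% of all genes tested passed with a negative slope. The same shares for these refits are not given here, so the counts of members are descriptions.

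Other presynaptic genes moved the same way. Of 46 tested, 42 had a negative slope on the dividing-cell mean that passed and none a positive one, with a median of -0.60 against 0.02 over all genes tested. Napb, which helps take spent SNARE bundles apart, had -0.97 and the vesicle gene Sv2b -0.90, both past the threshold. Rab3b (-0.05) and Doc2a (0.04), which encodes a calcium-binding vesicle protein, did not pass. Rab3a, the mouse gene of the vesicle GTPase that serves as a class gene, fell by 0.65 per log2 unit (limma adjusted p = 6.78e-05). Its level was 9.30 ± 0.86 (SD) in the 6 RAB3A tumours, 8.76 ± 1.29 in the 9 tumours of BC74C and 8.55 ± 1.30 in the 9 of ZNF668, and the groups overlapped. The sources used here do not tell whether this probe set also reads the class gene RAB3A. The overlap therefore does not show how strongly the class gene was expressed.

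SNARE and fusion genes that serve membrane traffic in most cells did not share this direction. Of 24 tested, 4 fell and 3 rose with the dividing-cell mean, and the median slope was 0.03. Snap47 (-0.42) and Stx3 (-0.37) fell, while Vamp3 (0.24) and Syngr2 (0.23) rose, each past the threshold. Among 21 neuron genes outside the synapse's release side, 16 fell and 1, Map2 (0.25), rose, with a median of -0.74. Of 9 genes of mature oligodendrocytes, the myelin-forming cells, 6 fell, with a median of -0.60, and of 7 neuroendocrine genes 6 fell, with a median of -0.53. Astrocyte, microglia and endothelial genes had medians of -0.10, -0.01 and 0.03. Negative slopes were thus met in the neuron and myelin lists as well as among the release genes. The 27 dividing-cell genes, such as Mki67, whose product marks cells in cycle (1.30), rose by construction.

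**Figure D3:**
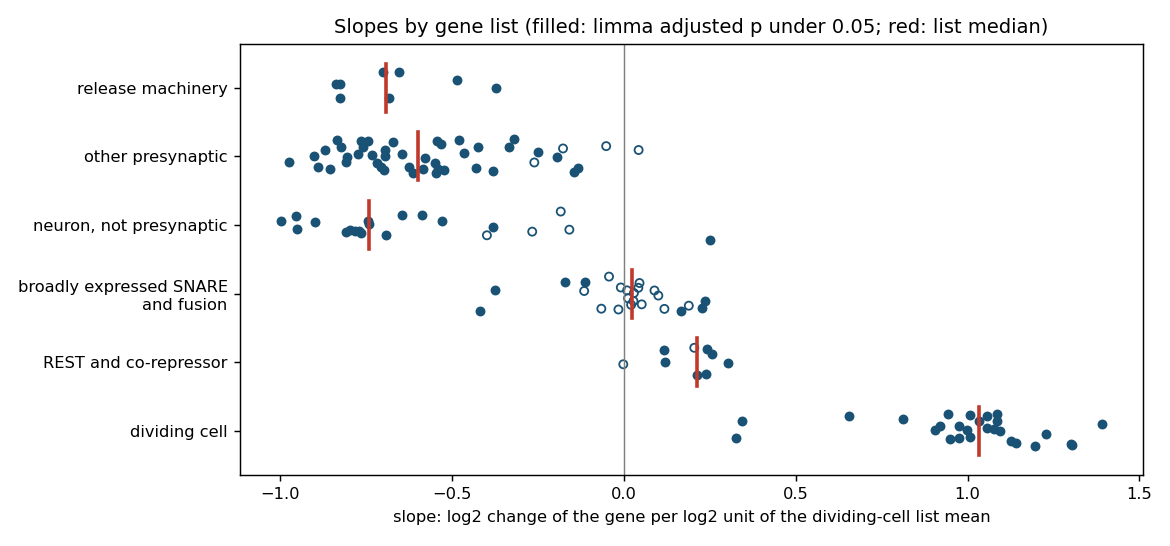
Each point is a gene of the list named at the left, placed at its slope on the dividing-cell mean (log2 units per log2 unit, 24 tumours); filled points passed limma at an adjusted p under 0.05 and the red bar is the list's median. All 8 release genes lie left of zero with a median of -0.69, beside -0.60 for the other presynaptic genes and 0.03 for broadly expressed SNARE and fusion genes.

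The neuron list tracked each member closely. Across the 24 tumours r between a member and the mean of the 21 other neuron genes ran from 0.77 (Stx1a) to 0.98 (Syt1). Within class genes it ran from 0.94 to 0.99 in RAB3A tumours, 0.81 to 0.98 in BC74C tumours and 0.72 to 0.99 in ZNF668 tumours. The part of neuron content in the slopes above was not tested.

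The 3 class genes were then compared. Every member had its highest mean in RAB3A tumours and its lowest in ZNF668 tumours, but the groups overlapped for all 8 and no difference passed. Snap25 was 12.22 ± 0.73 (SD, n = 6; lowest 11.16, median 12.58, highest 12.93) in RAB3A tumours. It was 11.64 ± 1.14 (9.81, 12.39 and 12.73) in the 9 BC74C tumours and 11.10 ± 1.68 (7.50, 11.54 and 12.91) in the 9 ZNF668 tumours. All 3 groups reached nearly the same highest value of Snap25. The lowest ZNF668 value is that of replicate 7, and the next lowest, 9.91 in replicate 2, was not below the lowest BC74C tumour.

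Stx1a was 7.05 ± 1.17 (SD; lowest 5.59, median 7.29, highest 8.74) in RAB3A tumours, 6.44 ± 0.89 (5.57, 6.29 and 8.14) in BC74C tumours and 6.13 ± 0.56 (5.60, 5.99 and 7.45) in ZNF668 tumours. Here the lowest values were alike and the highest differed. Vamp2 was 9.65 ± 0.84 (SD; 8.53, 9.71 and 10.81) in RAB3A tumours, 9.27 ± 0.81 (8.03, 9.30 and 10.32) in BC74C tumours and 8.98 ± 0.95 (7.60, 9.13 and 10.35) in ZNF668 tumours. Of the 8 members it had the smallest differences between RAB3A tumours and either other group.

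Syt1 was 11.63 ± 1.10 (SD; lowest 9.73, median 12.02, highest 12.77) in RAB3A tumours, 10.89 ± 1.51 (8.42, 11.72 and 12.45) in BC74C tumours and 10.36 ± 1.65 (7.32, 10.49 and 12.44) in ZNF668 tumours. Cplx1 was 11.27 ± 0.93 (SD; 9.50, 11.66 and 12.06) in RAB3A tumours, 10.73 ± 1.28 (9.02, 11.07 and 12.60) in BC74C tumours and 10.12 ± 1.58 (7.10, 9.95 and 12.67) in ZNF668 tumours. For Cplx1 the highest BC74C and ZNF668 tumours lay above every RAB3A tumour.

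Of the vesicle protein genes, Syp was 8.43 ± 1.21 (SD; lowest 6.56, median 8.69, highest 9.92) in RAB3A tumours, 7.75 ± 1.45 (5.43, 8.0 and 9.59) in BC74C tumours and 7.25 ± 1.62 (4.65, 7.36 and 9.48) in ZNF668 tumours. Sv2a was 10.11 ± 0.92 (SD; 8.65, 10.34 and 11.13) in RAB3A tumours, 9.36 ± 1.50 (6.92, 9.75 and 11.41) in BC74C tumours and 8.97 ± 1.81 (5.61, 8.89 and 11.53) in ZNF668 tumours. Syn1 was 8.16 ± 1.05 (SD; 6.88, 8.45 and 9.52) in RAB3A tumours, 7.33 ± 1.28 (5.83, 8.03 and 8.76) in BC74C tumours and 7.15 ± 1.30 (5.16, 7.11 and 9.03) in ZNF668 tumours. ZNF668 replicate 7 set the lowest value of all 3 genes, and without it the SD in ZNF668 tumours fell from 1.62 to 1.38 for Syp, from 1.81 to 1.39 for Sv2a and from 1.30 to 1.14 for Syn1, each below that in BC74C tumours.

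**Figure D4:**
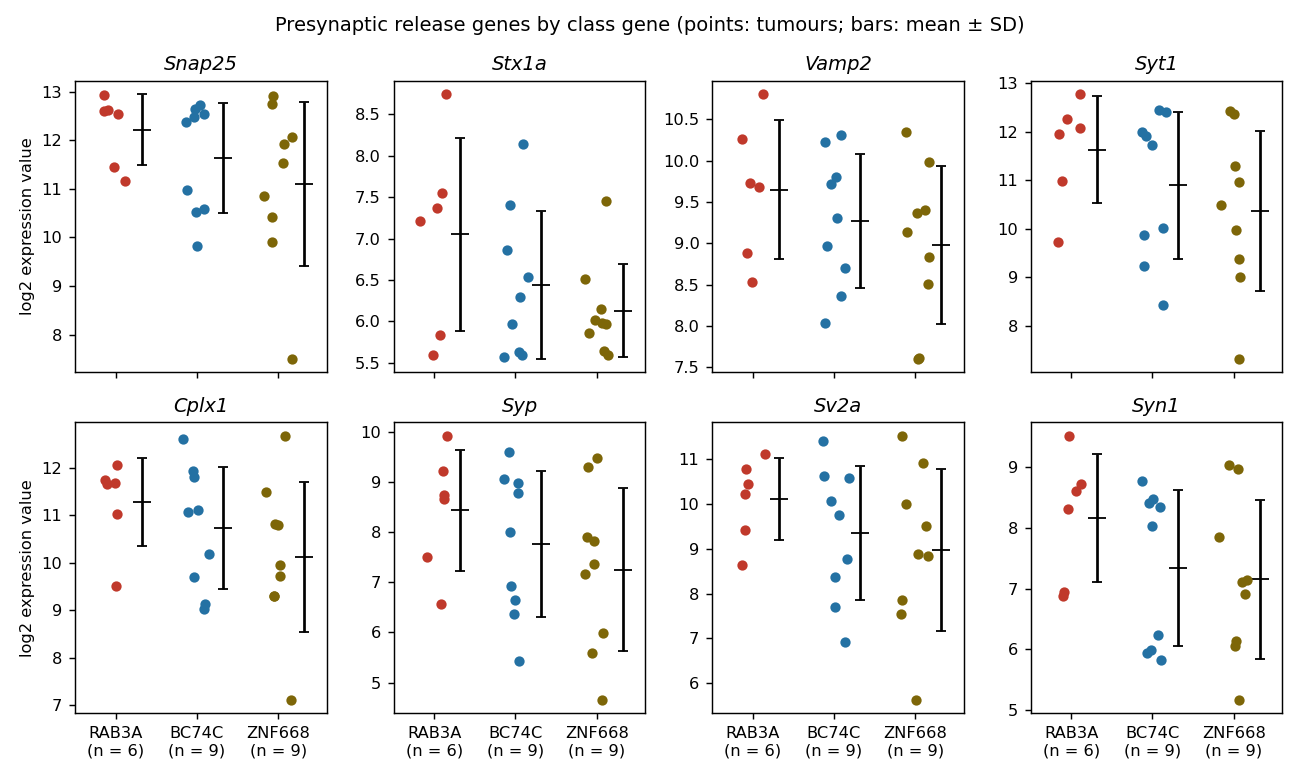
Each panel plots the log2 value of 1 release gene; a point is a tumour and the bar beside each class gene its mean ± SD (n = 6, 9 and 9). The clouds overlap in every panel, and the ZNF668 cloud reaches down to 7.50 for Snap25 and 5.61 for Sv2a.

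Between RAB3A and ZNF668 tumours the 8 differences ran from 0.67 (Vamp2) to 1.27 (Syt1), with a median of 1.13 against -0.04 over all genes tested. No member passed limma, with adjusted p-values from 0.536 to 0.583, where 0.0757% of genes tested passed. Stx1a alone had an unadjusted p under 0.05 (difference 0.92 ± 0.44 SE), which 9.21% of all genes had. Snap25 differed by 1.12 ± 0.65 (SE). RAB3A replicates 3 (11.16) and 6 (11.44) lay below the ZNF668 median of 11.54. All 6 RAB3A tumours lay above the ZNF668 mean, which ZNF668 replicate 7 (7.50) lowers. For Syt1, Syp, Sv2a and Cplx1 this held in 5 of 6 tumours, RAB3A replicate 3 being the exception, and for Stx1a, Vamp2 and Syn1 in 4 of 6, with replicate 6 also below. The median difference ran from 0.77 without ZNF668 replicate 7 to 1.39 without ZNF668 replicate 9. Within the elw tumours it was 0.98 (4 against 6) and within the mmr tumours 1.54 (2 against 3). Among tumours labelled ependymoma (2 against 3) it was 0.01, with 4 members negative and 4 positive, from -0.22 to 0.60.

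No gene passed in the lists set beside the members. Of 46 other presynaptic genes, 45 had a higher mean in RAB3A than in ZNF668 tumours, with a median of 0.80, where 5789 of all 13218 genes tested did. The largest differences were Sv2b (1.81) and Pclo, a giant scaffold of the release site (1.72). Of the other neuron genes 20 of 21 had a higher mean, with a median of 1.05, and all 27 dividing-cell genes a lower one, with a median of -0.65. The neuron list mean was 9.10 ± 0.84 (SD) in the 6 RAB3A tumours, 8.73 ± 1.15 in the 9 tumours of BC74C and 8.06 ± 1.33 in the 9 of ZNF668. The dividing-cell mean was 6.56 ± 1.55, 7.40 ± 1.15 and 7.27 ± 1.63 in the same order. With the neuron list mean in the model, the 8 differences between RAB3A and ZNF668 ran from -0.20 to 0.34, with a median of -0.05. That mean tracked the members at r = 0.77 to 0.98 and so takes up most of their variation. The drop therefore does not show why the groups differed. With the dividing-cell mean the 8 differences ran from 0.34 to 0.70, and with the Y-linked mean from 0.39 to 0.75. All 3 Y-linked genes had a lower mean in RAB3A than in ZNF668 tumours, with a median of -0.92.

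Between BC74C and ZNF668 tumours the differences were smaller, from 0.18 (Syn1) to 0.60 (Cplx1), with a median of 0.45. None passed limma (adjusted p 0.965 to 0.990, where 0.303% of genes tested passed), and none had an unadjusted p under 0.05, which 6.88% of genes had. For 7 members 5 of 9 BC74C tumours lay above the ZNF668 mean, and for Cplx1 6 of 9. Replicates 1, 2 and 6 lay below for every member and replicate 9 for all but Cplx1. The median was 0.14 without ZNF668 replicate 7 and 0.73 without ZNF668 replicate 9, 0.28 within elw tumours and 0.05 within mmr tumours, where BC74C had 1 tumour. The direction was not stable: among tumours labelled ependymoma (6 against 3) all 8 differences were negative, with a median of -0.51. With the neuron list mean in the model all 8 were negative too, from -0.51 (Syn1) to -0.06 (Stx1a). That mean tracked the members at r = 0.77 to 0.98 and so takes up most of their variation. The sign of what remains therefore does not show whether the direction is stable. Of the other presynaptic genes 40 of 46 were higher in BC74C tumours, none past the threshold, led by Cplx2 (1.65). All 8 oligodendrocyte progenitor genes had a lower mean in BC74C tumours (median -1.0), as did all 10 endothelial genes (median -0.43), and none passed; their part in the members' values was not tested. All 3 Y-linked genes also had a lower mean in BC74C tumours (median -0.74), none past the threshold. With the Y-linked mean in the model the members' median was 0.09. Of the neuron genes 1 passed: the glutamate receptor gene Gria1 (1.95, limma adjusted p = 0.039).

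Between RAB3A and BC74C tumours the 8 differences ran from 0.38 (Vamp2) to 0.83 (Syn1), with a median of 0.64. None passed limma (adjusted p 0.729 to 0.825), 0% of all genes tested passed, and no member had an unadjusted p under 0.05, which 8.21% of genes had. The median was 0.69 within elw tumours and 1.50 within mmr tumours (2 against 1). It ran from 0.41 without BC74C replicate 6 to 0.98 without RAB3A replicate 3. With the dividing-cell mean in the model it was 0.04, with differences from -0.02 to 0.32. All 27 dividing-cell genes were lower in RAB3A than in BC74C tumours, with a median of -0.80 and none past the threshold. The 3 comparisons share their tumours pairwise.

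**Figure D5:**
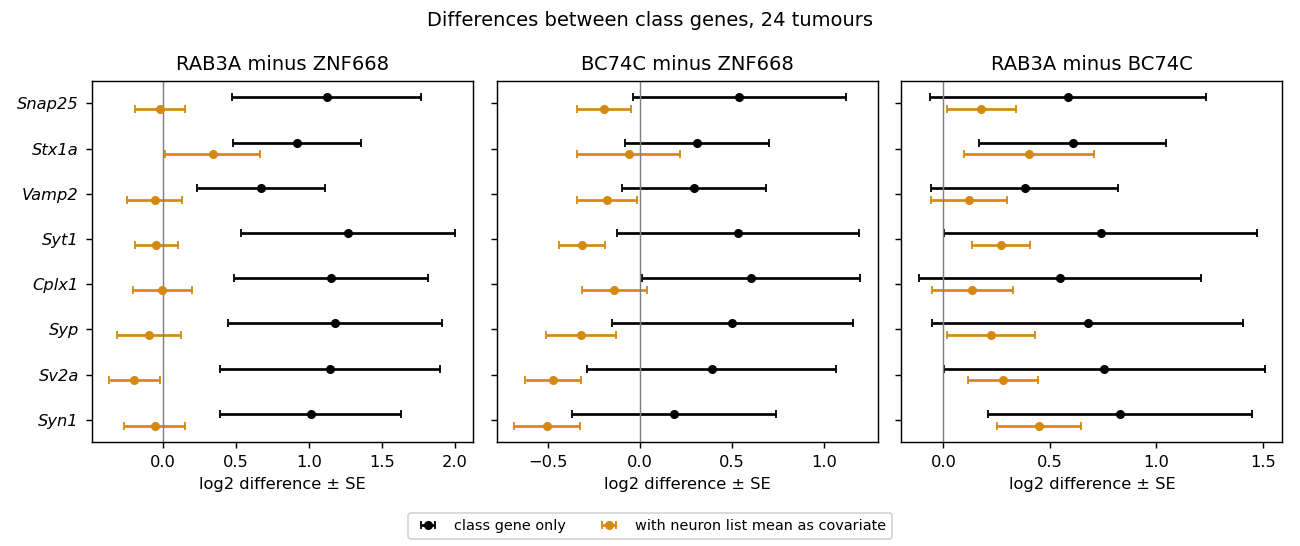
Each panel gives, for 1 pair of class genes, the log2 difference ± SE of the 8 release genes from the model of 24 tumours, in black with the class gene alone and in orange with the neuron list mean as a covariate. With the covariate the RAB3A minus ZNF668 differences move from a median of 1.13 to -0.05, and those of BC74C minus ZNF668 to the negative side. The covariate tracked the members at r = 0.77 to 0.98, so these moves do not show why the groups differed.

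By tumour label, the 4 tumours labelled UNKNOWN had the highest mean of every member and, for 7 of the 8 (not Stx1a), the smallest SD. Snap25 was 12.79 ± 0.15 (SD, n = 4) in these, 11.67 ± 1.0 (SD, n = 11) in ependymoma, 10.96 ± 2.01 (SD, n = 5) in TUMOR and 10.90 ± 1.21 (SD, n = 4) in HGG. The UNKNOWN tumours read 12.93, 12.73, 12.61 and 12.91 for Snap25 in RAB3A replicate 1, BC74C replicate 8, RAB3A replicate 5 and ZNF668 replicate 9. Syt1 was 12.39 ± 0.34 in UNKNOWN, 10.89 ± 1.31 in ependymoma, 10.22 ± 1.87 in TUMOR and 10.17 ± 1.53 in HGG. Sv2a was 10.93 ± 0.49, 9.46 ± 1.33, 8.69 ± 1.91 and 8.59 ± 1.37 in the same order, Syn1 8.89 ± 0.50, 7.49 ± 1.14, 6.94 ± 1.22 and 6.66 ± 1.21, and Stx1a 7.65 ± 0.98, 6.32 ± 0.66, 6.16 ± 0.81 and 6.14 ± 0.86. The neuron list mean of the UNKNOWN tumours was 9.78 ± 0.19, against 8.63 ± 0.93 in ependymoma, 7.88 ± 1.53 in TUMOR and 8.05 ± 1.30 in HGG. Their dividing-cell mean spread widely, from 4.87 to 8.74. TUMOR and UNKNOWN name no tumour type, and no test compared them with the other labels.

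HGG tumours were lower than ependymomas for all 8 members, but 1 HGG tumour of 4 was not, and no difference passed. With the class gene in the model the differences ran from -1.03 ± 0.79 (SE, Syp) to -0.11 (Stx1a), with a median of -0.60 against 0.00 over all genes. All adjusted p-values were 0.9998 by limma, and no member had an unadjusted p under 0.05, which 1.73% of all genes had, while 0% of genes tested passed after adjustment. Syp read 8.98 in BC74C replicate 7, and 5.99, 5.60 and 6.37 in the other HGG tumours, ZNF668 replicates 2 and 8 and BC74C replicate 9, against a mean of 7.85 ± 1.26 (SD, n = 11) in ependymoma. For every member BC74C replicate 7 lay above the ependymoma mean and the other 3 below it. Without it the median difference was -1.37, and without ZNF668 replicate 5, an ependymoma, -0.34. With the title prefix in the model the median was -0.03. The dividing-cell mean was 8.06 ± 1.27 in HGG and 7.16 ± 1.36 in ependymoma. With that mean in the model the median difference was -0.22, and with the neuron list mean -0.18, and in each 3 of the 8 members had a positive difference. With the class gene in the model all 3 Y-linked genes were lower in HGG (median -1.16), none past the threshold. No model of this comparison held the Y-linked mean, so its part was not tested.

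Rest itself gave a relation that changed with the probe set read. On its brightest probe set (mean 7.87) all 8 members had negative slopes, from -0.82 to -0.49, and none passed limma (adjusted p 0.359 to 0.465, where 0.0605% of genes passed). Stx1a, Vamp2 and Syp had unadjusted p-values of 0.0384, 0.0238 and 0.0329, under 0.05 with a negative slope as in 8.19% of all genes, and r ran from -0.44 to -0.32. Over the 8 members the permutation p-values ran from 0.0307 to 0.135 for r and from 0.0655 to 0.245 for rho. In the 6 mmr tumours 7 of the 8 slopes were positive, with a median of 0.66, and without ZNF668 replicates 5 and 9, whose Rest values were the most extreme, the median slope went from -0.62 to -1.10, with none passing in either. On a second Rest probe set (mean 7.42), tried after the values had been seen, all 8 slopes passed. They ran from -1.68 (Sv2a) to -0.87 (Stx1a), with limma adjusted p-values from 7.22e-05 to 0.00156, and 20.3% of all genes tested also had a negative slope that passed. These 2 probe sets correlated at only r = 0.33 with each other, and with the dividing-cell mean at 0.39 and 0.69. The part of the dividing-cell genes in the second relation was not tested. Further Rest probe sets, at means of 3.69 and 3.33, lay under the level set for testing (3.76). Their r with the members ran from -0.08 to 0.25 and from -0.48 to -0.30. Both count in the mean of probe sets used as an alternative below. Of 9 genes of REST and its co-repressors, 7 rose with the dividing-cell mean, among them the histone deacetylase genes Hdac1 (0.30) and Hdac2 (0.26), where 20.3% of all genes tested had a positive slope that passed. Rest (0.21, limma adjusted p = 0.104) and Ehmt2 did not pass.

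Further probe sets of 4 members were read beside the brightest. The 2 others of Syt1 correlated with the first at r = 0.88 and 0.84, and the 2 others of Cplx1 at 0.90 and 1.0. The second of Vamp2 was dimmer than the first (mean 5.42, SD 0.39) and followed it at only r = 0.44. Its RAB3A minus ZNF668 difference was -0.10, opposite in sign to the 0.67 of the first. The second of Syp, at a mean of 3.46, lay under the level set for testing (3.76), with r = 0.58 and a difference of 0.03. On the dividing-cell mean the second of Vamp2 had a slope of only -0.07 and that of Syp -0.08, each much shallower than the first. The others of Syt1 had slopes of -0.67 and -0.62, and those of Cplx1 -0.49 and -0.78. These slopes of further probe sets were not tested. Probe sets of different brightness differ in how they bind, so levels are compared between tumours and not between genes.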

How the data were processed

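RNA of 24 tumours was extracted with Trizol and biotin-labelled for Affymetrix arrays, per the labels' protocols. The values deposited by the authors are log2 expression values, and Partek 6.6 was used, per the submitters' processing notes. Background correction, normalization and summarisation are not given in the sources used here, and a normalization that equalises arrays can hide a shift of most genes. Signal over background was not available per probe, so the number of arrays limits the precision. No per-sample column was left unmapped.

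Of 45141 probe sets, 104 controls were left out. 28898 carry 1 symbol, 551 several and 15588 are unlisted in the platform annotation used here. Each gene was read by its single-symbol probe set of highest mean, and those under the 30th percentile (log2 3.76) were not tested.

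limma 3.58.1 in R 4.3.3 (lmFit, eBayes with trend, two-sided, Benjamini-Hochberg over 13218 genes, threshold 0.05) gave 3 class gene contrasts from 1 model of 24 tumours, HGG minus ependymoma from 15 tumours with the class gene as covariate, and slopes on the mean of the dividing-cell list and on Rest. The fits were also tried on simulated data in which each gene varied independently, unlike the correlated genes here. That trial does not check the calls made on these tumours. Correlations of members with the dividing-cell mean and with Rest (16 relations) have p-values from 100000 permutations, two-sided. The other correlations were given no p-value. Members and the 14 other gene lists (228 genes) were chosen with earlier results of these data known, so their counts are descriptions. Named genes are the members, Rab3a, Mki67, Rest, and from each list those past the threshold or the 2 highest and 2 lowest. Also named are the 5 genes most like and the 5 most opposite to the members, clone, predicted and sequence-record names passed over. Promoters are from RefSeq, GRCm38.p6. Figures used matplotlib 3.10.9. Replicate numbers follow the order of deposit.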

Additional observations from a re-analysis of the deposited data

Results flagged for a closer look

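In 4 of the 48 groups of 4 to 10 tumours examined (8 members, 6 groups each), the highest or lowest tumour lay far from the others by Dixon's criterion, which chance meets in about 1 of 20 groups. Stx1a read 7.45 in ZNF668 replicate 5, with the other ZNF668 tumours between 5.60 and 6.51. Stx1a also read 7.55 in RAB3A replicate 4, with the other tumours labelled TUMOR between 5.59 and 6.15. Syn1 read 8.48 in BC74C replicate 7, with the other HGG tumours between 5.99 and 6.13. Snap25 read 7.50 in ZNF668 replicate 7, with the other tumours labelled TUMOR between 11.16 and 12.55.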

How the results depend on the processing

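Leaving out 1 tumour at a time, 0 members passed in any class gene or label comparison, and all 8 kept their call on the dividing-cell mean. The median of the members then ran from 0.77 to 1.39 (RAB3A minus ZNF668), 0.14 to 0.73 (BC74C minus ZNF668), 0.41 to 0.98 (RAB3A minus BC74C), -1.37 to -0.34 (HGG minus ependymoma), -0.77 to -0.60 (slope on the dividing-cell mean) and -0.85 to -0.47 (slope on Rest). Genes called ran from 0 to 40, 25 to 63, 0 to 4, 0 to 0, 4433 to 5922 and 3 to 202 in the same order. Members that changed sign were Syn1 (-0.065 to 0.42) and Sv2a (-0.031 to 0.71) for BC74C minus ZNF668, and Stx1a (-0.64 to 0.13) and Cplx1 (-0.83 to 0.028) for HGG minus ependymoma. No paired analysis was possible because replicate numbers follow the order of deposit and pair no tumours.

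Genes called for RAB3A minus ZNF668 (10) became 6 with no filter, 21 in elw titles, 0 with only these 2 class genes, 0 in ependymoma-labelled tumours, 21 with array weights, 0 with the neuron mean, 4 with the dividing-cell mean and 0 with the Y-linked mean as covariate. For BC74C minus ZNF668 (40) they became 0 in ependymoma-labelled tumours, 130 with array weights and 78 with the neuron mean. For RAB3A minus BC74C (0) they became 1 with no filter, 2 with the mean of probe sets, 2 with the title prefix as a block, 2 with no trend, 6 with the neuron mean and 1 with the Y-linked mean, and for HGG minus ependymoma (0) 1 with the dividing-cell mean. On the dividing-cell mean, mmr titles alone gave 0 members and 89 genes, where the 24 tumours gave 8 and 5153. On Rest (0 members, 8 genes), the mean of probe sets gave 7 members and 2784 genes, centred arrays 48 genes, mmr titles 0, leaving out the 2 farthest tumours 4, the Y-linked mean 18, and the second probe set, added after seeing the data, 8 members and 5894 genes.

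With the neuron mean as covariate RAB3A minus ZNF668 turned for Snap25 (-0.020), Syt1 (-0.046), Vamp2 (-0.057), Syn1 (-0.059), Syp (-0.10), Sv2a (-0.20), Cplx1 (-0.0057) and their median (-0.052). BC74C minus ZNF668 turned for Snap25 (-0.20), Syt1 (-0.32), Stx1a (-0.062), Vamp2 (-0.18), Syn1 (-0.51), Syp (-0.32), Sv2a (-0.48), Cplx1 (-0.14) and the median (-0.26). HGG minus ependymoma turned for Cplx1 (0.23), Stx1a (0.15) and Syt1 (0.071). In ependymoma-labelled tumours BC74C minus ZNF668 turned for Snap25 (-0.38), Syt1 (-0.58), Stx1a (-0.34), Vamp2 (-0.44), Syn1 (-0.87), Syp (-0.68), Sv2a (-0.81), Cplx1 (-0.30) and the median (-0.51), and RAB3A minus ZNF668 for Sv2a (-0.091), Syn1 (-0.17), Syp (-0.12) and Vamp2 (-0.22). With the dividing-cell mean HGG minus ependymoma turned for Cplx1 (0.21), Stx1a (0.12) and Syt1 (0.0041), and RAB3A minus BC74C for Cplx1 (-0.025), Syp (-0.0017) and Vamp2 (-0.018). With the Y-linked mean BC74C minus ZNF668 turned for Sv2a (-0.066) and Syn1 (-0.16). Blocked on the title prefix it turned for Syn1 (-0.011), and HGG minus ependymoma for Cplx1 (0.058), Stx1a (0.51), Syt1 (0.0083) and Vamp2 (0.063). In mmr titles the slope on Rest turned for Cplx1 (0.18), Stx1a (0.51), Sv2a (0.81), Syn1 (1.15), Syp (1.0), Syt1 (0.24), Vamp2 (0.84) and the median (0.66). The causes were not tested.

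The deposited values carry no background signal, so dim probe sets could not be told from background. Over these settings 55 member slopes on the dividing-cell mean kept their call and 9 lost it (8 in mmr titles, and Stx1a without the 2 farthest tumours), and none reversed.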
